A study of Mus musculus with 4 samples.

Results

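Wide CTCF peaks are intervals of 800 bp or more in the CTCF peak lists of 2 HoxB mutants of mouse gastruloids. InsCBS5-10 had 1003 of them among 31905 CTCF peaks (3.14%), and DelCBS7-10 had 1065 among 33915 (3.14%). Rows that shared an interval were first merged to the strongest summit, and chromosomes 1 to 19 without chromosome 11, which carries the edited HoxB cluster, were used. The members were chosen by their measured width in these lists, so their widths, summits and fold enrichment in the list that chose them are given as descriptions. The wild-type CTCF list and the RAD21 lists had no part in the choice, and the other mutant had none in the choice within a list.

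Gastruloids are aggregates of mouse embryonic stem cells that elongate and pattern an axis in vitro, and they were pooled and fixed 96 h after aggregation. CTCF was mapped by ChIPmentation, in which immunoprecipitated chromatin is tagged by a transposase, in wild-type gastruloids and in 2 mutants with the HoxB genotype Del/Del(i9-13). The mutant called InsCBS5-10 here carries Ins(CBS5-10), and the mutant called DelCBS7-10 carries this insertion and Del(CBS7-10). Both mutants share a deleted copy of HoxB, loss of the interval between Hoxb9 and Hoxb13 on the other copy, and the inserted CTCF sites, and DelCBS7-10 lacks inserted sites 7 to 10. RAD21 was mapped in InsCBS5-10, and a further RAD21 peak list for wild type, which belongs to no sample of the series, was used beside it. Each group was 1 library of pooled gastruloids, so genotype, cell clone and library cannot be told apart and no test between genotypes was possible. Ranges in parentheses beside shares are exact 95% intervals by the Clopper-Pearson method and reflect counting error alone.

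CTCF is a zinc-finger protein that binds a long, directional DNA motif and halts the cohesin ring as it extrudes loops of chromatin. RAD21 is the cohesin subunit that closes the ring, so CTCF sites that stop cohesin usually carry a RAD21 peak. A single bound motif gives a narrow interval about as wide as the sheared fragments, and a peak caller joins neighbouring enriched positions into a single interval with several summits. Wide intervals of these proteins can hold several sites or a repeat unit present in many copies.

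Promoter sequences inside the wide peaks are shown first, as examples with and without a wild-type CTCF peak. The sequences are from RefSeq (GRCm38.p6) and hold the 250 bases upstream of the start, 5′ to 3′ on the gene's strand. Of the promoters in the table whose upstream window lay wholly inside a wide peak, 10 were in InsCBS5-10 and 19 were in DelCBS7-10. Those printed were chosen after their values were seen. The first set was picked from wide peaks that also had a wild-type CTCF peak and a RAD21 peak in both lists. Capitals mark a match to a shortened core of the CTCF motif, searched on both strands and written as CCA, any 2 bases, AG, any 2 bases, GGC.
Ttc34, chr4:154837166-154837415, plus strand: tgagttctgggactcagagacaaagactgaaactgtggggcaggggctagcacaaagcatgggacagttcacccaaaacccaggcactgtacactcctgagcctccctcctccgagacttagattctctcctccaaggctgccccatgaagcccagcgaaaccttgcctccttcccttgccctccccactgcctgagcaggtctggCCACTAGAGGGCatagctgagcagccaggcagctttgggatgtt
Hsd3b7, chr7:127800359-127800608, plus strand: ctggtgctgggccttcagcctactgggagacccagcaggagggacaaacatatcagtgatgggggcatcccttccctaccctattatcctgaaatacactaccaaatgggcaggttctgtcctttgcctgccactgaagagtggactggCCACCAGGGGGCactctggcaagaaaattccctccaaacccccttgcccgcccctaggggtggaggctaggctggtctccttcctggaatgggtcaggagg
Ahcyl2, chr6:29853491-29853740, plus strand: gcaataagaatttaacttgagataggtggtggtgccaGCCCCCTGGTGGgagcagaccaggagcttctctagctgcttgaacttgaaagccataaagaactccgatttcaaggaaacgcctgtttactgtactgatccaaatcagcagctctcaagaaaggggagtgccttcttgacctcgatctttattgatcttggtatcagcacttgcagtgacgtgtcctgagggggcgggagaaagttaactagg

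The second set lies in wide DelCBS7-10 peaks with no wild-type CTCF peak. Capitals mark CG dinucleotides, the bases at which DNA can be methylated and which are dense in CpG islands.
Pax7, chr4:139832969-139833218, minus strand: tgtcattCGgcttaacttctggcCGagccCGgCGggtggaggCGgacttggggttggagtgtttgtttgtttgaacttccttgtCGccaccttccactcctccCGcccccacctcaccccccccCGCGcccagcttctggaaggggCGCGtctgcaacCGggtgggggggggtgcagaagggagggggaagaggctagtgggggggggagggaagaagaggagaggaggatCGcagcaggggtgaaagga
Sox21, chr14:118237031-118237280, minus strand: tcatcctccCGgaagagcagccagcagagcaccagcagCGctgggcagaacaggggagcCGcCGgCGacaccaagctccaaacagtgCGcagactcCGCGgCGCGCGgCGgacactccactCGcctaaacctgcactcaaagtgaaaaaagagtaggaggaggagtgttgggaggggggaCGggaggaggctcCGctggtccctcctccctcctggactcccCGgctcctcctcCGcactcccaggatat
Hoxd11, chr2:74682073-74682322, plus strand: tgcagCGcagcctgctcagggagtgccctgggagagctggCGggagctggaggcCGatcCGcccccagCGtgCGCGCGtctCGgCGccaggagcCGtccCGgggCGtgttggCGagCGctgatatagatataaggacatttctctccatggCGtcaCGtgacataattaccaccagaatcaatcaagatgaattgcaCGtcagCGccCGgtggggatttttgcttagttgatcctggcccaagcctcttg

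The core matched in 3 of 12 promoters inside wide DelCBS7-10 peaks that were found in wild type (25.0%, 5.49 to 57.2) and in 0 of 7 inside those that were not (0%, up to 41.0%). Over all 18524 promoters in the table, 2.00% held the core, and over the 309 promoters inside any DelCBS7-10 peak 21.7% did. A window without a match says only that these letters are not in it. The 7 promoters without a wild-type peak, those of Dmrt3, Fev, Flt1, Hoxd11, Pax2, Pax7 and Sox21, held 13 to 25 CG dinucleotides, with a median of 20 and a GC content of 68.0%. The 12 found in wild type held 1 to 29, with a median of 5 and a GC content of 54.4%, so the ranges overlapped, and all promoters in the table had a median of 10 and 56.0%.

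The share of wide peaks set the mutant lists apart from wild type. Of 44362 wild-type CTCF peaks, 358 reached 800 bp (0.807%, 0.726 to 0.895), against 3.14% in each mutant. Median widths were close, at 305 bp in wild type, 316 bp in InsCBS5-10 and 324 bp in DelCBS7-10. The upper ends differed, with a 95th percentile of 531 bp in wild type and 720 bp in both mutants. Depth is unknown from peak lists, and its part in these widths was not tested. RAD21 peaks of 800 bp or more made up 0.924% of the InsCBS5-10 list and 17.5% of the wild-type list. The CTCF and RAD21 lists of InsCBS5-10 therefore did not share the larger share of wide intervals, whereas the RAD21 list of wild type was the widest of all 5.

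**Figure D1:**
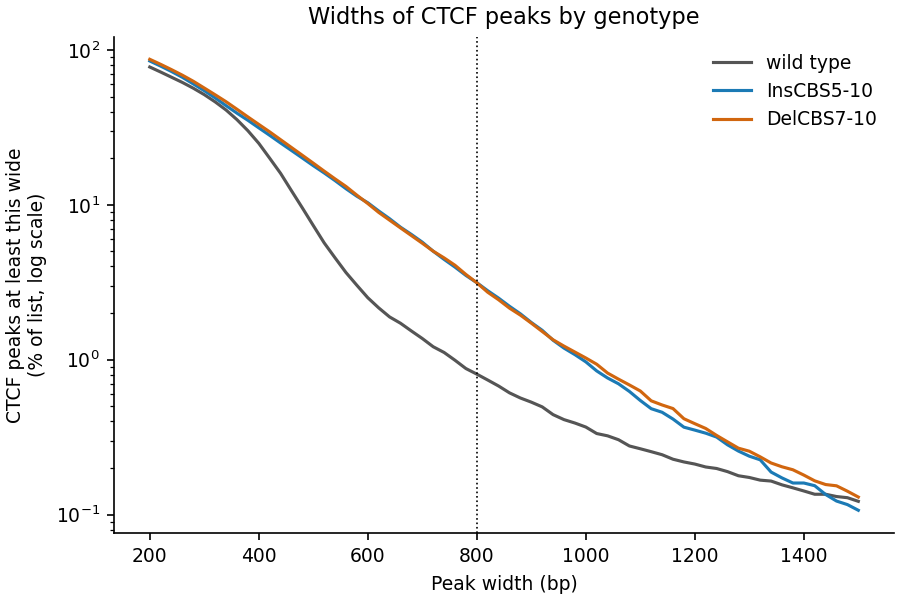
The percentage of CTCF peaks at least as wide as the value on the horizontal axis (bp) is drawn for each genotype, on a log scale, with 1 library per line. The dotted line marks 800 bp, where both mutants stand at 3.14% and wild type at 0.807%.

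Across both mutants the wide peaks covered 1670 sites. Of these, 398 were wide in both mutants, 605 only in InsCBS5-10 and 667 only in DelCBS7-10. Wild type was also wide at 152 sites. All but 62 sites had a wild-type CTCF peak of some width. An InsCBS5-10 peak was missing altogether at 46 sites wide in DelCBS7-10, whereas a DelCBS7-10 peak was missing at 1 site wide in InsCBS5-10.

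The limit fell in a continuous range of widths. A peak is said to be by its nearest protein-coding gene, whatever the distance, which was 227.0 kb for Gm47655 and 146.0 kb for Tmem121 below. In InsCBS5-10, the peak by Mthfd1, a folate enzyme, was 800 bp wide, with 411 bp in DelCBS7-10 and 399 bp in wild type. The peak by Exosc7, a subunit of the RNA exosome, was 800 bp wide, with 851 bp in DelCBS7-10 and 485 bp in wild type. Just outside, the peaks by Duoxa2, Angptl2 and Gpd1l were 799 bp wide, and measured 846, 894 and 830 bp in DelCBS7-10. In DelCBS7-10, the peaks by Gm17019, Slco2a1 and Slc35f1 were 800 bp wide, with 701, 912 and 676 bp in InsCBS5-10. Those by Gm47655, Tpm1 and Thap4 were 799 bp wide, with 612, 567 and 483 bp. The third InsCBS5-10 peak at the limit, by Tmem121, was 800 bp wide there, 801 bp in DelCBS7-10 and 1780 bp in wild type.

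Nearly all wide peaks lay at sites that wild type also bound. Of the wide InsCBS5-10 peaks, 997 of 1003 were found in wild type (99.4%, 98.7 to 99.8), against 87.5% of all InsCBS5-10 peaks. Of the wide DelCBS7-10 peaks, 1002 of 1065 were found (94.1%, 92.5 to 95.4), against 85.8%. A longer interval has more room to overlap a peak of another list. At the same sites, the wide InsCBS5-10 peaks had a median width of 916 bp there and 483 bp in wild type (quartiles 412 and 590). The wide DelCBS7-10 peaks had medians of 914 bp and 487 bp. The first width in each pair is the one that chose the peaks, and a lower value elsewhere follows in part from the choice: the 358 wide wild-type peaks had a median of 968 bp there, and 731 bp in InsCBS5-10 and 768 bp in DelCBS7-10 where found. The counterpart in wild type reached 800 bp for 125 wide InsCBS5-10 peaks, where the background over all peaks of that list was 1.02%, and for 122 wide DelCBS7-10 peaks, where it was 0.932%. The wide interval held 2 or more wild-type peaks for 85 InsCBS5-10 members (background 0.379%) and for 113 DelCBS7-10 members (background 0.466%).

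The other mutant, which did not choose the peaks, was intermediate. Of the wide InsCBS5-10 peaks, 99.9% were found in DelCBS7-10, against 82.7% of all InsCBS5-10 peaks, and their median width there was 724 bp. Of the wide DelCBS7-10 peaks, 95.7% were found in InsCBS5-10, against 77.7%, with a median width of 723 bp. The counterpart itself reached 800 bp for 398 InsCBS5-10 members (background 3.51%) and for 398 DelCBS7-10 members (background 3.21%). Among the 996 wide InsCBS5-10 peaks in all 3 CTCF lists, the DelCBS7-10 peak was wider than the wild-type peak at 768 (77.1%), with a median ratio of 1.36. Over all 25526 InsCBS5-10 peaks in all 3 lists the same ratio was 1.01. Among the 992 wide DelCBS7-10 peaks in all 3 lists, the InsCBS5-10 peak was wider than the wild-type peak at 746 (75.2%), again with a median ratio of 1.36, against 0.973 over all 25499. These sites include those that both mutants chose. The sets wide in a single mutant were picked also by a width under 800 bp in the other mutant. Its width there is thus capped and not free of the choice. At the 604 sites wide in InsCBS5-10 alone, the DelCBS7-10 peak was wider than the wild-type peak at 440 (72.8%), with a median ratio of 1.21. At the 601 sites wide in DelCBS7-10 alone, the InsCBS5-10 peak was wider at 419 (69.7%), with a median ratio of 1.20.

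**Figure D2:**
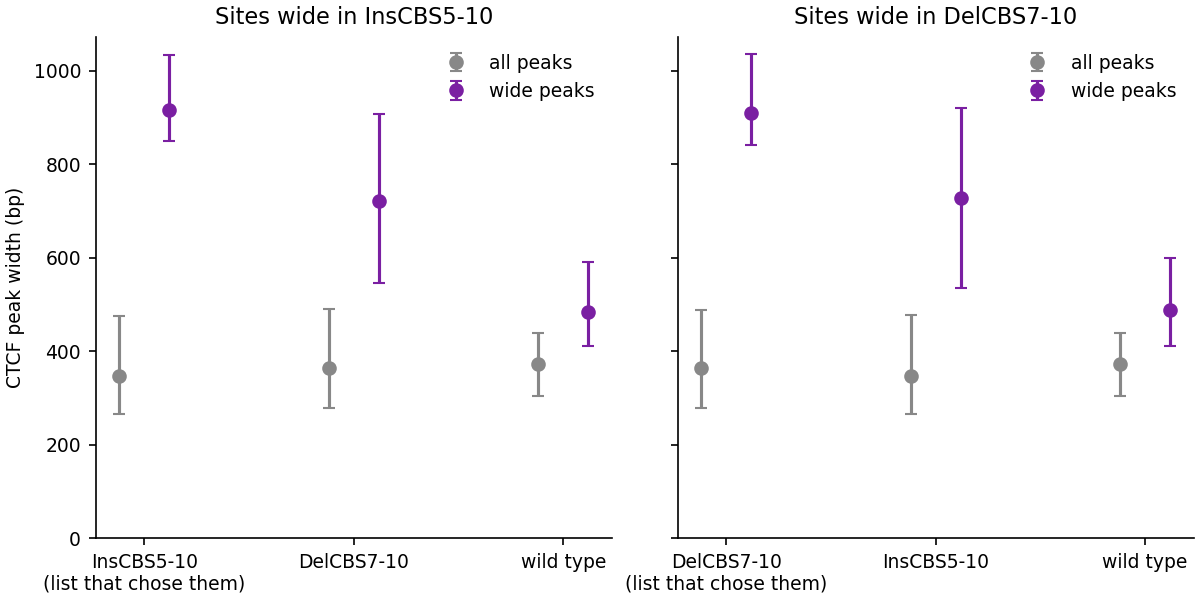
CTCF peak width (bp) in the list that chose the wide peaks, in the other mutant and in wild type, for wide peaks found in all 3 CTCF lists and for all peaks found in all 3. Points are medians and bars span the quartiles over sites of 1 library each. Wide InsCBS5-10 peaks have medians of 916, 721 and 483 bp, and wide DelCBS7-10 peaks of 910, 728 and 488 bp.

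Most wide peaks were built from several summits. In InsCBS5-10, 223 had 1 summit, 481 had 2, 223 had 3 and 76 had 4 or more. In DelCBS7-10 the same counts were 280, 455, 233 and 97. Several summits were thus present in 77.8% of wide InsCBS5-10 peaks and 73.7% of wide DelCBS7-10 peaks, where 9.86% and 9.56% of all peaks in each list had them. In members with 2 summits, the summits were a median of 393 bp apart in InsCBS5-10 (quartiles 312 and 495) and 387 bp apart in DelCBS7-10. The stronger summit had 1.89 times the fold enrichment of the weaker in InsCBS5-10 and 1.85 times in DelCBS7-10. The strongest summit lay off centre, a median of 175 bp from the middle of the interval in InsCBS5-10 and 179 bp in DelCBS7-10.

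A summit-to-summit distance of 50 bp or less does not depend on the length of the interval. By that measure, the strongest summits of wide peaks matched other genotypes more often than the weaker ones did, as in narrower peaks with several summits. In InsCBS5-10 members with several summits, 87.3% of the strongest summits lay within 50 bp of a wild-type CTCF summit (84.8 to 89.6), against 22.6% of the second (19.7 to 25.7) and 20.7% of the third. In DelCBS7-10, the shares were 77.1%, 25.0% and 22.4%. The other mutant had a summit within 50 bp of 28.0% of the second summits in InsCBS5-10 and 32.9% of those in DelCBS7-10. Over all peaks, 74.6% of the strongest summits in InsCBS5-10 and 71.5% in DelCBS7-10 matched wild type. In narrower peaks with several summits, the strongest matched wild type in 80.1% (InsCBS5-10) and 75.7% (DelCBS7-10) and the second in 15.8% and 17.0%. Members with 1 summit matched wild type in 91.9% (InsCBS5-10) and 82.1% (DelCBS7-10). The second summits were also the weaker positions, with a median fold enrichment of 3.61 against 6.71 for the strongest in InsCBS5-10, and 3.67 against 6.24 in DelCBS7-10.

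**Figure D3:**
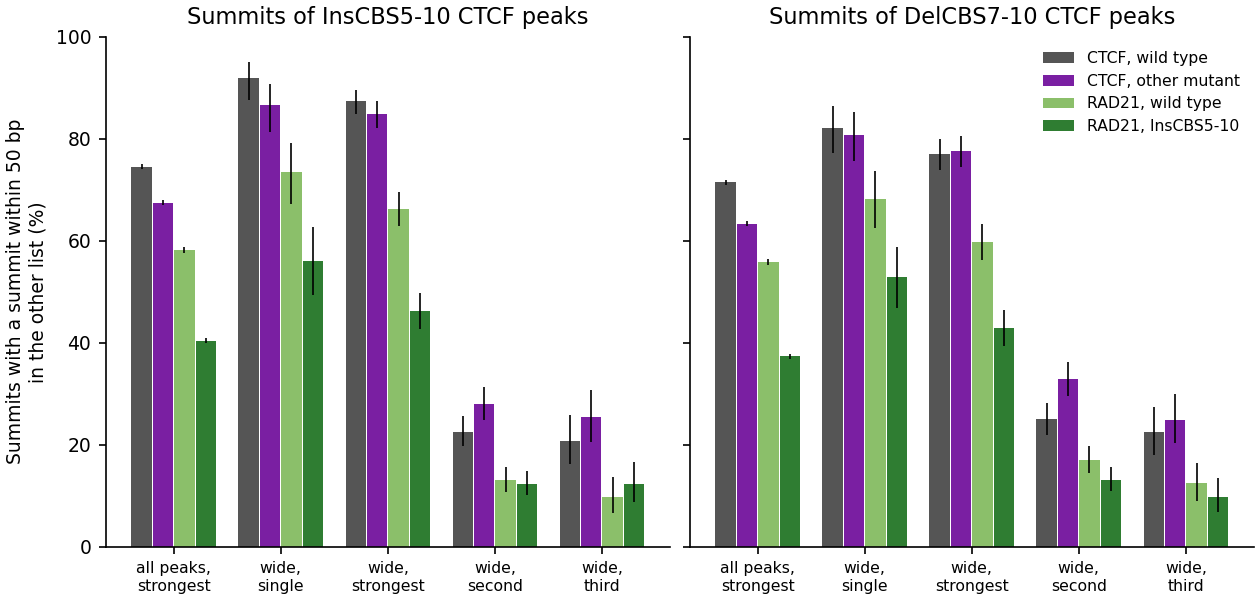
Percentage of CTCF summits with a summit within 50 bp in wild-type CTCF, the other mutant's CTCF and both RAD21 lists, by rank of the summit within its peak, with exact 95% intervals for counting error. The strongest and the single summits of wide peaks stand above 75% for wild-type CTCF, and the weaker summits stand at 20.7% to 25.0%.

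RAD21 was called more often at wide peaks than at peaks in general, where the interval is also shorter. In InsCBS5-10, a RAD21 peak overlapped 665 of 1003 wide CTCF peaks (66.3%, 63.3 to 69.2), where it overlapped 48.8% of all CTCF peaks. The wild-type RAD21 list overlapped 917 of them (91.4%), against 78.1% of all. For wide DelCBS7-10 peaks the InsCBS5-10 RAD21 list overlapped 665 of 1065 (62.4%, 59.5 to 65.4) against 46.0%, and the wild-type RAD21 list 925 (86.9%) against 76.8%. No RAD21 library of DelCBS7-10 is among the samples. Neither RAD21 list had a peak at 6.48% of wide InsCBS5-10 peaks and 10.8% of wide DelCBS7-10 peaks, against 20.8% and 22.2% of all.

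Part of this moved with the strength of the CTCF peak. All peaks of a list were split by fold enrichment into 4 classes of equal size. In the strongest class of InsCBS5-10 peaks, RAD21 in InsCBS5-10 was called at 79.3% of wide peaks and 75.8% of all peaks. In the next weaker class the shares were 58.3% and 60.9%, and in the one after it 54.7% and 40.5%. In the weakest class, 64.7% of the 51 wide peaks had RAD21, against 17.8% of all. This class includes several sites wide in all 5 lists, such as the ribosomal RNA copies on chromosome 17 described below, with a fold enrichment of 2.93. The DelCBS7-10 shares from the strongest to the weakest class were 71.9, 58.6, 50.2 and 58.3% for wide peaks and 71.0, 56.0, 38.8 and 18.3% for all. The higher share at wide peaks was thus seen in the 2 weaker classes, and in the 2 stronger classes the shares lay within 4 percentage points of those of all peaks. By the size-free summit distance, 46.3% of the strongest summits of InsCBS5-10 members with several summits had a RAD21 summit of InsCBS5-10 within 50 bp. The share was 40.4% over all peaks, 41.4% in narrower peaks with several summits and 56.1% in members with 1 summit. Of the members' second summits, 12.3% had one. These shares were not matched for fold enrichment, whose median was 6.71 for the members' strongest summits and 5.57 over all peaks. RAD21 intervals at wide CTCF peaks were themselves narrow in InsCBS5-10, with a median of 351 bp against 316 bp at all CTCF peaks, and 67 of them reached 800 bp (background 0.564%), as did 72 at wide DelCBS7-10 peaks (background 0.516%). In the wild-type RAD21 list the medians were 684 bp and 668 bp, and 299 reached 800 bp (background 24.3%), as did 335 at wide DelCBS7-10 peaks (background 23.3%).

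The widest intervals were wide in all 3 CTCF lists, and several lie in sequence known to be repeated. The widest, on chromosome 17 from 39843065 to 39848713 in DelCBS7-10 (mm10), covers Rn18s-rs5 and AY036118, copies of ribosomal RNA sequence, and measured 5241 bp in InsCBS5-10, 5649 bp in DelCBS7-10, 5187 bp in wild type and 5507 bp in the RAD21 list of InsCBS5-10. Its fold enrichment was low, at 2.93 and 2.41 in the mutants and 2.39 in wild type. An interval on chromosome 1 from 24611625 to 24616118 lies over the pseudogenes Gm10222 and Gm10925 and measured between 4420 and 4494 bp in all 5 lists. On chromosome 14, 116.4 kb from Gm2244, an interval was 3692, 3682 and 3867 bp wide in InsCBS5-10, DelCBS7-10 and wild type, with fold enrichments of 12.3, 12.3 and 11.4. Of the 12 sites on chromosome 9 before 3.1 Mb, next to the centromere, 10 were wide in all 5 lists.

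In all, 30 sites were 800 bp or more in all 3 CTCF lists and both RAD21 lists, spread over 11 chromosomes. No annotated gene overlapped 19 of them. Their median fold enrichment in InsCBS5-10 was 6.61, with a median −log10 q of 293. The strongest, 1068 bp wide at chromosome 2 from 98666255 in InsCBS5-10, with Lrrc4c as its distant nearest gene, had a fold enrichment of 19.7 in InsCBS5-10, 19.3 in DelCBS7-10 and 20.8 in wild type. Without these 30 sites, the shares of wide peaks found in wild type, with RAD21, with several summits and within 1 kb of gene ends stayed within their intervals. Counts of wide counterparts fell by these 30 sites, which are wide in every list. Of the wide InsCBS5-10 peaks, 95 in place of 125 then had a wild-type counterpart of 800 bp or more, and 37 in place of 67 a RAD21 counterpart of InsCBS5-10. For wide DelCBS7-10 peaks the counts were 92 in place of 122 and 42 in place of 72. Several of the chromosome 9 sites fell in a single wild-type CTCF interval of 11169 bp, so these counts are of mutant peaks and not of separate wild-type peaks.

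Some very wide peaks differed in width between the antibodies in InsCBS5-10. By Trappc6b, which encodes a vesicle-tethering subunit, CTCF measured 4098 bp in InsCBS5-10, 3943 bp in DelCBS7-10 and 3940 bp in wild type, with 16 summits in InsCBS5-10, whereas RAD21 measured 221 bp in InsCBS5-10 and 810 bp in wild type. By Gm15319 on chromosome 8, CTCF measured 2894, 2680 and 2877 bp, and the widest of 4 RAD21 peaks in InsCBS5-10 measured 608 bp. Within Stam2, an endosomal sorting gene, CTCF measured 2328, 2195 and 2259 bp. The wider of 2 RAD21 peaks there measured 1572 bp in InsCBS5-10, with no peak in the wild-type RAD21 list. By Scaf8, at a site that is among those wide in all 5 lists, CTCF measured 2417 and 2403 bp in the mutants. Wild type had 2 separate CTCF peaks there, the wider of 1215 bp. RAD21 measured 1653 bp in InsCBS5-10 and 2455 bp in wild type.

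Among the wide peaks of highest fold enrichment, those by Gdi2, E030030I06Rik, Cyp8b1 and Vmn1r238 had a fold enrichment of 12.4 to 15.8 in wild type as well, whereas the strongest in InsCBS5-10 did not. The Gdi2 and Vmn1r238 peaks lay 164.9 and 116.6 kb from these genes. The strongest InsCBS5-10 peak lay 62.2 kb from Ccnh, which encodes a cyclin, on chromosome 13 from 85126569 to 85127376. It measured 808 bp in InsCBS5-10, 808 bp in DelCBS7-10 and 481 bp in wild type. Its fold enrichment was 20.1 in InsCBS5-10, 15.8 in DelCBS7-10 and 4.94 in wild type. RAD21 was 808 bp wide in InsCBS5-10 and 195 bp in the wild-type list. The interval had the same start and end in both mutant CTCF lists and in the RAD21 list of InsCBS5-10. The peak 148.5 kb from Osr1, a zinc-finger regulator of intermediate mesoderm, also had a higher fold enrichment in both mutants than in wild type. It measured 2021 bp in InsCBS5-10, 2036 bp in DelCBS7-10 and 1496 bp in wild type. Fold enrichment there was 10.1 in InsCBS5-10, 10.2 in DelCBS7-10 and 4.85 in wild type. The −log10 q was 337 in InsCBS5-10, 876 in DelCBS7-10 and 8.80 in wild type. RAD21 measured 1938 bp in InsCBS5-10 and 591 bp in wild type. The origin of the differences at these sites was not tested.

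Wide peaks lay near gene ends about as often as other peaks and inside genes somewhat more often. A summit within 1 kb of an end of a protein-coding gene was found for 93 wide InsCBS5-10 peaks (9.27%, 7.55 to 11.2), where 8.95% of all peaks had one, and for 102 wide DelCBS7-10 peaks (9.58%), where 9.78% had one. Within 5 kb the shares were 31.4% against 27.6%, and 31.2% against 28.2%. Summits inside a protein-coding gene made up 57.2% of wide InsCBS5-10 peaks (54.1 to 60.3) against 48.5% of all, and 55.7% (52.6 to 58.7) against 49.0% in DelCBS7-10. By nearest gene, 31 wide InsCBS5-10 peaks fell to 9 lists of 485 developmental regulators, signals, pluripotency and imprinted genes, cohesin genes and histones, 462 of them on the chromosomes used (3.09%, 2.11 to 4.36), where 3.27% of all peaks did. In DelCBS7-10, 66 did (6.20%), where 3.67% of all peaks did.

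The excess in DelCBS7-10 lay in the wide peaks that wild type lacked. The gene lists were chosen with earlier results of these data known, so the listed shares are given as descriptions. Of the 63 such peaks, 37 had a listed gene as the nearest (58.7%, 45.6 to 71.0), against 29 of the 1002 found in wild type (2.89%), and 6.63% of all DelCBS7-10 peaks not found in wild type. By width, the listed share among DelCBS7-10 peaks not found in wild type was 4.75% at 150 to 299 bp, 8.05% at 300 to 499 bp, 33.9% at 500 to 799 bp and 58.7% at 800 bp or more. Among peaks found in wild type, it was 3.20, 3.04, 3.55 and 2.89% over the same widths. InsCBS5-10 had only 6 wide peaks without a wild-type peak, by Prdm6, Hoxc11, Trim71, Foxb1, Fbxl14 and Nfix, and 3 of them had a listed gene as the nearest (background 3.85% of all peaks of that list not found in wild type). All 6 were called in DelCBS7-10, and neither RAD21 list had a peak at them.

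**Figure D4:**
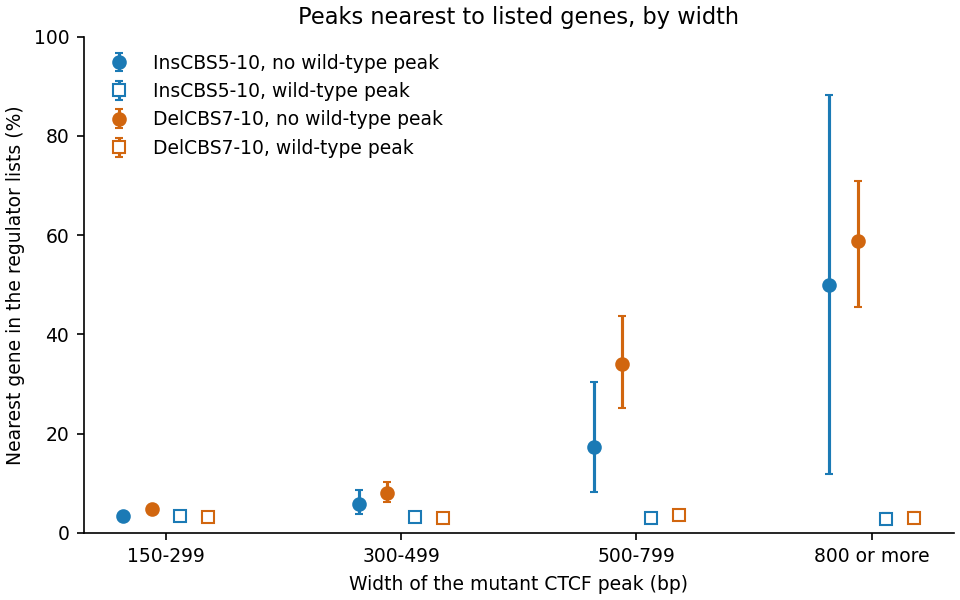
Percentage of CTCF peaks whose nearest protein-coding gene is in the lists of developmental and other genes, by peak width (bp), for peaks with and without a wild-type CTCF peak, with exact 95% intervals for counting error. The lists were chosen with earlier results of these data known. For DelCBS7-10 peaks without a wild-type peak the percentage stands at 4.75% in the narrowest class and at 58.7% in the widest, and with a wild-type peak it stays between 2.89% and 3.55%.

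The 37 wide peaks by listed genes belonged to a few families of developmental transcription factors. Of 7 wide DelCBS7-10 peaks by Hox and ParaHox genes, which pattern the body axis, 6 had no wild-type peak. For other homeobox genes this held for 12 of 19 peaks, and for the Pax, Sox, Fox, Tbx, Gata and zinc-finger regulators for 19 of 27. In that order, the families had 49, 316 and 413 DelCBS7-10 peaks of any width. For basic helix-loop-helix factors, signals, pluripotency genes and imprinted genes, 0 of 2, 0 of 6, 0 of 2 and 0 of 4 wide peaks lacked a wild-type peak. Wild type had a peak at 85.8% of all DelCBS7-10 peaks and at 94.1% of the wide ones. A count of 0 among so few peaks therefore does not set a family apart. No wide peak fell to genes for CTCF and cohesin or to replication-dependent histones, which had 22 and 19 DelCBS7-10 peaks of any width.

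The 63 sites lay closer to gene ends than narrower peaks without a wild-type peak, and most had no RAD21 call in either list. RAD21 was not mapped in DelCBS7-10, so its presence at these peaks in the genotype that chose them is unknown. Of the 63, 36.5% had the summit within 1 kb and 69.8% within 5 kb of a gene end, with a median distance of 1.55 kb, against 11.5 kb for wide peaks found in wild type. Over all DelCBS7-10 peaks, 9.78% had it within 1 kb and 28.2% within 5 kb. RAD21 was called at 5 of 63 in InsCBS5-10 and 7 of 63 in the wild-type list, and at neither in 82.5%. Over all DelCBS7-10 peaks, the shares were 46.0% in InsCBS5-10, 76.8% in the wild-type list and 22.2% at neither. Among narrower DelCBS7-10 peaks without a wild-type peak, RAD21 was called at 2.80% in InsCBS5-10, at 22.2% in the wild-type list and at neither in 76.9%. A lack of RAD21 calls was thus not particular to the wide peaks. Of those narrower peaks, 8.46% had the summit within 1 kb and 25.1% within 5 kb of a gene end. Fold enrichment had a median of 6.15, against 6.47 for wide DelCBS7-10 peaks found in wild type and 3.49 for narrower peaks without a wild-type peak. InsCBS5-10 had a CTCF peak at 27 of the 63, with a median width of 463 bp.

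The strongest was by Prdm6, a regulator of smooth muscle genes, 0.064 kb from an end of the gene, with a fold enrichment of 13.8 and a width of 985 bp in DelCBS7-10. InsCBS5-10 had 817 bp there with a fold enrichment of 5.77, and wild type and both RAD21 lists had no peak. The peak by Tfap2d, an AP-2 factor, was 874 bp wide with a fold enrichment of 9.15, and 569 bp wide in InsCBS5-10. By Foxf1, a forkhead factor of the lateral mesoderm, the peak was 1093 bp wide with a fold enrichment of 8.97, and 443 bp wide in InsCBS5-10. By Vax2, a homeobox gene of the ventral eye, and Lhx5, a LIM homeobox gene of the forebrain, the peaks were 1055 and 950 bp wide, with fold enrichments of 9.46 and 8.38, and had no InsCBS5-10 peak.

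Some of the strongest were by genes outside the lists. By Cdkn2c, a cell cycle inhibitor, the peak was 871 bp wide with a fold enrichment of 10.5 in DelCBS7-10 and no peak elsewhere, and a second wide peak of 806 bp lay nearer the same gene. Within Sgpl1, which encodes the sphingosine phosphate lyase, the peak was 943 bp wide with a fold enrichment of 9.87, and 409 bp in InsCBS5-10. Within Nrn1, a neuronal growth gene, it was 1067 bp wide with a fold enrichment of 9.41 and had no InsCBS5-10 peak.

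Wide peaks by listed genes without a wild-type peak included patterning genes. InsCBS5-10 had 2 peaks within the wide intervals by Pax7, Hoxc11, Tfap2a and Tfap2b, and the wider is given. Pax7, a paired box gene of the dorsal neural tube and muscle precursors, had 1908 bp with 4 summits in DelCBS7-10 and 541 bp in InsCBS5-10. Hoxc11 had 1906 bp with 5 summits and 1094 bp. Pax2, a paired box gene of the kidney and midbrain, had 1823 bp with 5 summits and 463 bp, and a second peak nearby of 1261 bp that InsCBS5-10 lacked. Hoxc9 had 1478 bp without an InsCBS5-10 peak. Tfap2a had 1599 bp and 279 bp in InsCBS5-10, Tbx18 1563 bp and 518 bp, and Tfap2b 1477 bp and 501 bp. Of these, Tbx18 and Tfap2b had a RAD21 peak in InsCBS5-10, 314 and 258 bp wide. The Sox21 peak, whose promoter is printed above, was 852 bp wide in DelCBS7-10 and 179 bp in InsCBS5-10, with a peak of 239 bp in the wild-type RAD21 list. Over Hoxd11 the DelCBS7-10 peak was 1086 bp wide with Hoxd10 as the nearest gene end, and no other list had a peak.

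**Figure D5:**
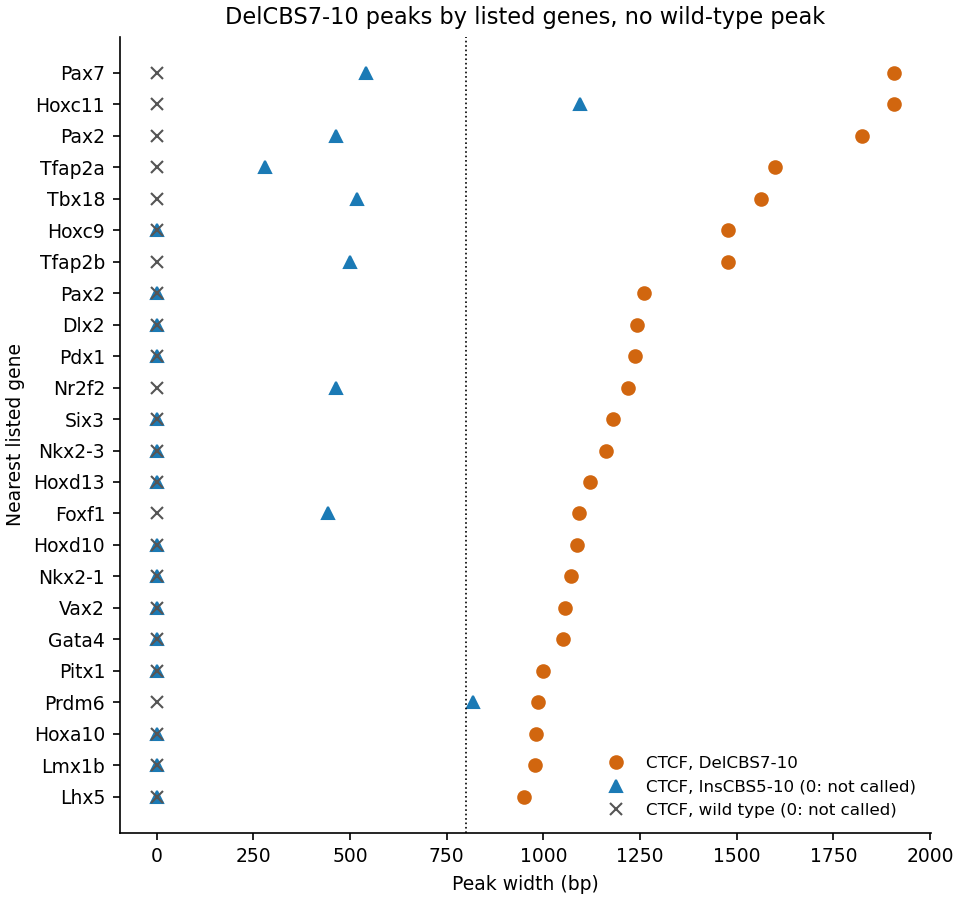
Widths (bp) of 24 of the widest DelCBS7-10 CTCF peaks that have a listed gene as the nearest and no wild-type CTCF peak, with the width in InsCBS5-10 and 0 where no peak was called. The dotted line marks 800 bp. Only the peaks by Hoxc11 (1094 bp) and Prdm6 (817 bp) also reach the limit in InsCBS5-10.

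At listed genes where wild type had a peak, the mutants differed less regularly. The wide InsCBS5-10 interval by Kcnq1 met 2 peaks in wild type and 2 in DelCBS7-10, and the wide DelCBS7-10 interval by Eomes met 2 in wild type, of which the widest is given. Sox17, an endoderm regulator, had 1328 bp in DelCBS7-10, 173 bp in InsCBS5-10 and 317 bp in wild type. Kcnq1, an imprinted potassium channel gene, was widest in InsCBS5-10, with 1326 bp in InsCBS5-10, 427 bp in DelCBS7-10 and 252 bp in wild type. Smo, the Hedgehog signal transducer, was wide in all, with 1181, 1279 and 1260 bp in InsCBS5-10, DelCBS7-10 and wild type, and 1039 bp for RAD21 in InsCBS5-10. Sp8, a zinc-finger gene of the limb and tail bud, had 1256 bp in InsCBS5-10 and 1090 bp in DelCBS7-10 against 321 bp in wild type. Eomes, a T-box regulator of early mesoderm and endoderm, had 1272 bp in DelCBS7-10, 471 bp in InsCBS5-10 and 320 bp in wild type. The retinoic acid receptor gene Rarb had 1101 bp in InsCBS5-10, 1109 bp in DelCBS7-10 and 275 bp in wild type.

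At the printed promoters, which were chosen on their values, the widths were as follows. The Ttc34 peak was 807 bp wide in InsCBS5-10, 999 bp in DelCBS7-10 and 597 bp in wild type, where its fold enrichment was 17.2. The Hsd3b7 peak, at a gene of bile acid synthesis, was 891 bp in InsCBS5-10, 1017 bp in DelCBS7-10 and 524 bp in wild type. The Ahcyl2 peak was 811 bp in DelCBS7-10 and 441 bp in wild type. Of all 12 promoters in wide DelCBS7-10 peaks that were found in wild type, RAD21 was called in InsCBS5-10 at the peaks of 4.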

How the data were processed

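CTCF and RAD21 ChIPmentation peak lists were used, 1 library per group. The submitters' processing notes name the build mm10, MACS2 2.2.7.1 and cutadapt 4.1. Per the file headers (peak names), the genome was mm10 with chromosome 11 edited and present in 2 versions. Aligner, filters, control and options were not given in the sources used here. The deposited score is 10 times the authors' −log10 q as a whole number, fold enrichment is the authors' ratio of signal to local background, and the −log10 p and −log10 q are the authors' p-value and q-value. They served to describe, rank and filter peaks inside each list. The deposited column of other type holds the summit offset. Read depth is unknown, and a missing peak was only not called.

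Rows with equal intervals were merged to the summit of highest −log10 q. A peak was found in another list at an overlap of 1 bp or more, and widths there are of the widest overlapping peak. Gene positions were from RefSeq GRCm38.p6 and came without strand, unlike the promoter sequences. Distances therefore run from the strongest summit to the nearer end of a protein-coding gene. Python 3.11.15 with pandas 2.3.3 and scipy 1.17.1 was used, and the overlap and distance code was tested on simulated peaks. The members, gene lists and rules were chosen with earlier results of these data known. The rule for named sites took the nearest gene of the 12 sites widest in both mutants, the 10 widest peaks of each mutant, the 8 of highest fold enrichment without a wild-type peak, the 5 of highest fold enrichment in each mutant, up to 12 of the widest by listed genes, and 3 on either side of the width limit in each list. Other sites (Sp8, Eomes, Rarb, Trim71, Foxb1, Fbxl14, Nfix, Rrp15, Prox1 and those with a named promoter) were named after their values were seen. Alternatives covered the width limit, overlap rule, q filter, distance rule and summit spacing. A site that the rule names is not reported here.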

Additional observations from a re-analysis of the deposited data

How the results depend on the processing

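Of 72 values of 14 results under alternatives, 44 stayed within the 95% interval of the value or within 1.5 times the count. The share within 1 kb of a gene end changed side against that of all peaks, from 9.27% to 8.26% in InsCBS5-10 at 600 bp (all peaks 8.95%), and from 9.58% to 9.95% at 600 bp and 11.5% at 1000 bp in DelCBS7-10 (all peaks 9.78%). Limits of 600 and 1000 bp gave 3292 and 309 wide peaks in InsCBS5-10 and 3458 and 348 in DelCBS7-10. With these limits the wild-type median width was 453 and 502 bp in InsCBS5-10 and 450 and 499.5 bp in DelCBS7-10, and several summits were present in 55.4% and 87.7%, and in 52.3% and 87.1%. Of DelCBS7-10 peaks, 96.8% and 90.2% were then found in wild type, and 90.0% and 81.9% had RAD21 in wild type, while 86.1% of InsCBS5-10 peaks did at 1000 bp. Summed widths gave wild-type medians of 502 and 509.5 bp. Wild-type summits lay inside 98.6% of wide InsCBS5-10 peaks. After RAD21 peaks under a −log10 q of 5 were left out, RAD21 in InsCBS5-10 was called at 51.6% and 46.6% of wide InsCBS5-10 and DelCBS7-10 peaks, and wild-type RAD21 at 83.5% and 78.0%. Gene ends lay within 1 kb of the nearer edge for 11.96% and 13.3%, and within 5 kb of the summit for 31.4% and 31.2%. Alternatives without the 30 sites wide in all 5 lists were chosen after seeing the data. No paired analysis was possible because each group has 1 library. Read depth is unknown, so peaks not called in a list cannot be told apart from peaks below its detection limit.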

Other observations

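Of 358 wild-type CTCF peaks of 800 bp or more, 301 had a peak in at least 1 mutant, 147 were wide in at least 1, and 211 were under 800 bp or missing in both mutants, with a median fold enrichment of 4.21. InsCBS5-10 had a peak at 274 (76.5%, against 63.0% of all wild-type peaks), DelCBS7-10 at 269 (75.1%, against 65.8%), and neither mutant at 57 (15.9%, against 28.9%). Within Rrp15, a ribosome assembly gene, wild type measured 2929 bp, InsCBS5-10 205 bp and DelCBS7-10 345 bp. A peak 129618 bp from Prox1, a homeobox gene of lymphatic and neural cells, measured 3760 bp in wild type, 556 bp in InsCBS5-10 and 1242 bp in DelCBS7-10. A separate peak over the Prox1 promoter went the other way, with 1331 bp in DelCBS7-10 and 286 bp in wild type. Listed genes were the nearest at 8 of the 358.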
